A study of Rattus norvegicus with 24 samples.

Results

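The genes described here encode the proteins of the cytosolic ribosome, and they were chosen by name. A probe set, the group of short probes with which the array measures a transcript, was a member when its only gene symbol in the platform annotation began with Rpl or Rps and a digit, or was Rplp0, Rplp1, Rplp2 or Rpsa. The ribosomal S6 kinases and symbols of pseudogenes were left out. This gave 60 of the 8799 probe sets on the array, for 41 genes. Of these, 42 probe sets measured 29 genes of the large subunit and 18 probe sets measured 12 genes of the small subunit. The large subunit genes were Rpl3, Rpl3l, Rpl4, Rpl5, Rpl6, Rpl7a, Rpl11, Rpl13a, Rpl14, Rpl17, Rpl18, Rpl19, Rpl19l4, Rpl21, Rpl22, Rpl23, Rpl24, Rpl26, Rpl27, Rpl27a, Rpl30, Rpl31, Rpl35, Rpl35a, Rpl36, Rpl36al1, Rpl39, Rpl41 and Rplp0. The small subunit genes were Rps3, Rps3a, Rps6, Rps9, Rps10, Rps15, Rps16, Rps23, Rps24, Rps27l, Rps29 and Rpsa. Rplp1, Rplp2, Rpl10 and Rps27a had no member probe set. A further 40 probe sets carried a ribosomal protein symbol among several symbols and were not members. Genes of this family have many near-identical copies in mammalian genomes, so the copy from which a signal came is uncertain.

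The ribosome is built from a small subunit, which reads the messenger RNA, and a large subunit, which joins the amino acids. Its proteins are needed in matched amounts, and most of their messenger RNAs begin with a tract of C and T bases through which the growth-sensing mTOR kinase controls their translation. The heart also has Rpl3l, a striated muscle paralogue of Rpl3 that can take the place of Rpl3 in the large subunit, and growth of the heart muscle under load draws on new ribosomes.

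Left ventricular tissue came from Dahl salt-sensitive rats, a strain that becomes hypertensive on salt and was shared by all groups. They were received when 5 weeks old and treated from an age of 6 weeks. High salt groups ate chow with 6% NaCl, a pathologic load on the heart. Exercise groups ran on a treadmill over 6 weeks, with 3 weeks of build-up and then 90 minutes a day at 16 m/min on an incline of 5 degrees, a physiologic load. Controls were sedentary and ate normal chow. By title there were 8 groups of 3 columns: at 3 and at 6 weeks a control, an exercise and a high salt group, and at 15 weeks a control and a high salt group. The starting point of these weeks was not stated. Nor did the labels tie arrays to individual animals, and p-values therefore reflect the spread between these arrays, which may be technical.

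Of the 24 columns, 2 labelled control at 3 weeks were identical in all 8799 values to 2 labelled exercise at 3 weeks. These were left out, so 20 arrays entered the fit, with 1 control and 1 exercise array at 3 weeks and 3 arrays in every other group. The control arrays at 6 weeks stood apart in RNA integrity. The ratio of signal from the 3' end to that from the 5' end of the GAPDH transcript, which rises when RNA is broken or copied incompletely, was 1.58, 2.48 and 3.99 in those 3 arrays. It was 1.09, 1.52 and 1.58 in the controls at 15 weeks and 0.989 to 1.18 in the other 16 distinct arrays. In tissue RNA, fewer cells of a type and less RNA per cell cannot be told apart. The labelled tissue showed its defining markers: the 12 probe sets of 7 cardiomyocyte genes summed to at least 204240 intensity units in every array of the fit.

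Because the start tract is the feature that defines the translational control of these messenger RNAs, the bases around the RefSeq start were read for the genes on which the results turn. RefSeq (assembly GRCr8) held a promoter entry for 36 of the 41 genes. Each line gives 15 bases before and 15 bases from the start on, 5′ to 3′ on the gene's strand, with the longest unbroken run of C and T in capitals.
Rpl3l, chr10:14258431-14258460, + strand: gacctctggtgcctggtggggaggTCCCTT
Rpl3, chr7:113507976-113508005, - strand: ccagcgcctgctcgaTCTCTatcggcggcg
Rpl22, chr5:168117946-168117975, + strand: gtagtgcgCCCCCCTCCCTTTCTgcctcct
Rpl27a, chr1:172974558-172974587, + strand: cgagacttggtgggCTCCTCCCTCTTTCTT
Rpl31, chr9:49143096-49143125, + strand: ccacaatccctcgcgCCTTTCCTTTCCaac
Rpl35, chr3:43165907-43165936, - strand: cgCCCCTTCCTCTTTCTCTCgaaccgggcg
Rps6, chr5:106420526-106420555, - strand: gacgCCTCCTaggcggtcggctgtgtcaag
Rps15, chr7:10068101-10068130, - strand: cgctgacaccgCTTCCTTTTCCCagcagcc

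The run was 6 bases in Rpl3l and Rps6 and 5 in Rpl3, against 12 in Rpl31 and Rps15, 15 in Rpl22, 16 in Rpl27a and 18 in Rpl35. It may lie anywhere in the window, so its length is not that of a start tract. The run lay before the start in Rps6, began at the start in Rpl3 and Rpl31, and reached the window's end in Rpl3l and Rpl27a. Short runs were also found in other genes named below, with 5 bases in Rpl6 and 7 in Rpsa. Over the 36 member promoters its median was 9 bases, against 4 over all 33469 promoters of the table. A run of at least 8 bases was found in 21 of 36 members, or 58.3%, and in 11.4% of all promoters. In the 300 bases from 250 before to 50 after the start, the letters CTTTCC on either strand were found in 18 of 36 member promoters, or 50.0%, and in 26.4% of all. CTTTCC holds only C and T, so it can lie within such a run. The letters CCGGAAG on either strand were found in 9 of 36, and in 8.75% of all. These matches describe letters in a window and depend on the annotated start.

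All 60 member probe sets passed the filter on mean intensity, set at the 25th percentile, which left 6555 probe sets for testing. Mean intensities over the 20 arrays lay between 45.2 for the probe set of Rpl5 and 22848 for one of Rps29. At least 1000 units were reached by 52 of the 60, or 86.7%, while 1182 of all 6555 tested probe sets did. The members varied little between arrays of a group. Their median residual standard deviation was 0.209 on the log2 scale, 0.238 for the large and 0.199 for the small subunit, against 0.322 over all tested probe sets and 0.270 over those 1182. Among members it was lowest for a probe set of Rpl11, at 0.0893, and highest for that of Rpl19l4, at 0.485.

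The summed behaviour of the family was read from the mean log2 deviation of the 60 probe sets from their own means over the 20 arrays. In the controls at 6 weeks this deviation was 0.16, 0.11 and 0.17, the only group of 3 in which every array lay above 0.10. The exercise arrays at 6 weeks lay at -0.09, -0.03 and 0.04, and the high salt arrays at 6 weeks at 0.09, -0.08 and 0.01. At 15 weeks the controls lay at -0.08, 0.17 and 0.13, and the high salt arrays at -0.01, -0.26 and 0.05. The high salt arrays at 3 weeks lay at -0.01, -0.10 and -0.12, the control array at 3 weeks at -0.11 and the exercise array at 3 weeks at -0.04. On this scale the control and treated arrays did not overlap at 6 weeks and overlapped at 15 weeks. The mean over all tested probe sets also stood highest in the controls at 6 weeks, at 0.06, against -0.03 under high salt at 6 weeks. Less the deviation of all tested probe sets in the same array, the members lay at 0.138, 0.069 and 0.061 in those controls and at 0.092, -0.097 and 0.112 under high salt, and these overlapped. The exercise arrays lay at -0.130, -0.0056 and 0.0595 on that scale, the highest just below the lowest control. The group means for the large subunit ranged from -0.12 in the single control array at 3 weeks to 0.16 in the controls at 6 weeks, and those for the small subunit from -0.10 in the single exercise array at 3 weeks to 0.12 in the controls at 6 weeks.

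**Figure D1:**
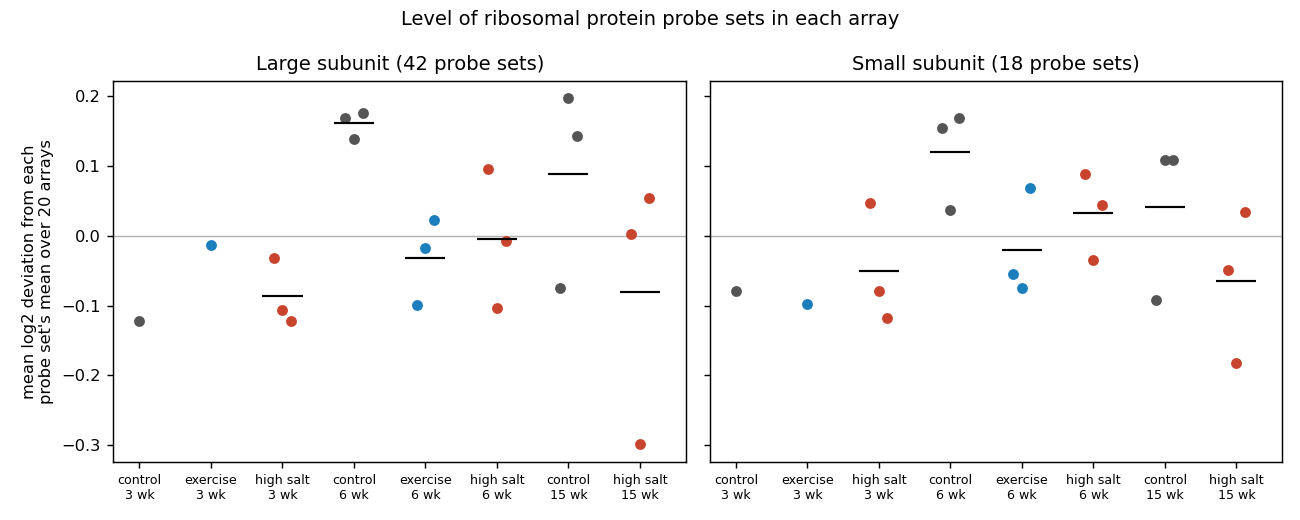
Each point is the mean log2 deviation of the large subunit (left) or small subunit (right) probe sets in 1 array from their means over 20 arrays, by title group, with group means as bars where a group has 3 arrays. The control arrays at 6 weeks lie highest as a group in both panels (means 0.16 and 0.12), and 1 high salt array at 15 weeks lies lowest.

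Exercise was compared with control at 6 weeks to ask how the family stood under physiologic load. Of the 60 members, 9 passed the test, 2 higher and 7 lower, or 15%, where 7.83% of all tested probe sets passed (4.47% higher and 3.36% lower). The median log2 change of the members was -0.21, against -0.12 over all tested probe sets, and 45 of 60, or 75%, lay below 0, against 61.8% of all. The median standard error was 0.19 for members and 0.26 over all tested probe sets. Changes larger than 0.5 in either direction were found in 16.7% of members and 28.1% of all. The higher share of calls thus does not show larger changes. The lower members were spread over both subunits, with 4 of 42 large and 3 of 18 small subunit probe sets. Adjusted p-values are limma's, with Benjamini-Hochberg adjustment over all 6555 probe sets, and changes are on the log2(intensity + 40) scale.

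In the small subunit, Rps9, a protein at the entry of the messenger RNA, gave 8069, 7671 and 7468 in the control arrays and 4953, 5284 and 5099 in the exercise arrays. The groups did not overlap, and Rps9 fell by 0.59 ± 0.15 (SE, n = 3 per group, adjusted p = 0.0215). Rpsa, which is also known as the laminin receptor, has 2 probe sets. D25224_at gave 4663, 5428 and 6148 in control and 2956, 3052 and 4123 in exercise hearts and fell by 0.68 ± 0.18 (adjusted p = 0.0268), while D25224_g_at changed by -0.24 and did not pass. Rps6, the substrate of the S6 kinases, also has 2. M29358_g_at gave 10465, 11472 and 12198.5 in control and 7474, 6734 and 8689 in exercise hearts and fell by 0.58 ± 0.17 (adjusted p = 0.0418). Its partner M29358_at went the other way, by 0.18, with 2246, 2219.6 and 2479.8 in control and 2340.5, 2563 and 3023 in exercise hearts, and did not pass. Rps15 rose by 0.94 ± 0.22 in rc_AA892895_i_at (adjusted p = 0.0104), from 697, 627 and 768.5 to 1406, 1104 and 1661, and its other probe sets changed by -0.24 and 0.10 without passing.

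In the large subunit, Rpl22, an RNA-binding protein on the ribosome surface, gave 9013, 9970.0 and 11384 in control and 4647, 7793 and 5679 in exercise hearts and fell by 0.77 ± 0.23 (adjusted p = 0.0433). Rpl31, which lies near the exit of the nascent chain, gave 13199, 13072 and 13876 against 9697, 9658 and 9108 and fell by 0.49 ± 0.15 (adjusted p = 0.0433). Both pairs of groups were apart. Rpl35 fell by 0.59 in M34331_g_at (adjusted p = 0.0428) and changed by -0.34 in its other probe set. Rpl19l4, named for its likeness to Rpl19, fell by 1.13 ± 0.34 (adjusted p = 0.0462), the largest change of a member here and the one with the widest spread. Rpl3l rose by 0.82 ± 0.25 in rc_AA891037_at (adjusted p = 0.0481) and changed by -0.43 in rc_AA891037_g_at. Rplp0, the stalk protein often used as a reference gene, changed by 0.21, and the probe sets of Rpl3 by -0.48 and -0.31; none of these passed.

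High salt was compared with the same controls at 6 weeks to ask the same of pathologic load, so both results share their 3 control arrays. Again 9 of 60 members passed, 3 higher and 6 lower, or 15%, where 14.4% of all tested probe sets passed (6.64% higher and 7.73% lower). That share was near the background. The median change was -0.16, against -0.15 over all tested probe sets, and 42 of 60, or 70%, lay below 0, against 62.7% of all.

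Rps6 M29358_g_at gave 7679, 6562 and 6392 in the high salt hearts, all below the 3 controls, and fell by 0.72 ± 0.17 (adjusted p = 0.0075), while its partner changed by 0.08. Rpsa D25224_at gave 3937, 3235 and 2826 and fell by 0.70 ± 0.18 (adjusted p = 0.0153), with -0.17 in its partner. Rpl35 M34331_g_at fell by 0.67 (adjusted p = 0.0136) and Rpl19l4 by 1.17 (adjusted p = 0.0266). The probe sets of these 4 genes had passed in the exercise comparison too, each in the same direction, as had Rpl3l rc_AA891037_at and Rps15 rc_AA892895_i_at.

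Rpl27a, a large subunit protein, gave 10876, 11652 and 11470.5 in control and 7905, 7770 and 7812 in high salt hearts and fell by 0.53 ± 0.15 (adjusted p = 0.0257), against -0.28 under exercise without passing. Rpl21 fell by 0.94 in rc_AA849648_g_at (adjusted p = 0.0440), a dim probe set at 101, 29.6 and 141 in high salt hearts, and its 3 other probe sets changed by -0.24 to -0.46. Higher levels were found for Rpl6 S71021_s_at, by 0.72 ± 0.18 (adjusted p = 0.0108), from 2642, 1686 and 2464 to 3570, 3464 and 4064. Its partner changed by 0.44. Rps15 rc_AA892895_i_at rose by 0.73 (adjusted p = 0.0273), and Rpl3l rc_AA891037_at by 0.94 ± 0.25 (adjusted p = 0.0155), from 1348, 1297 and 776 to 1890, 1871 and 2835. Rplp0 changed by 0.39 and did not pass.

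**Figure D2:**
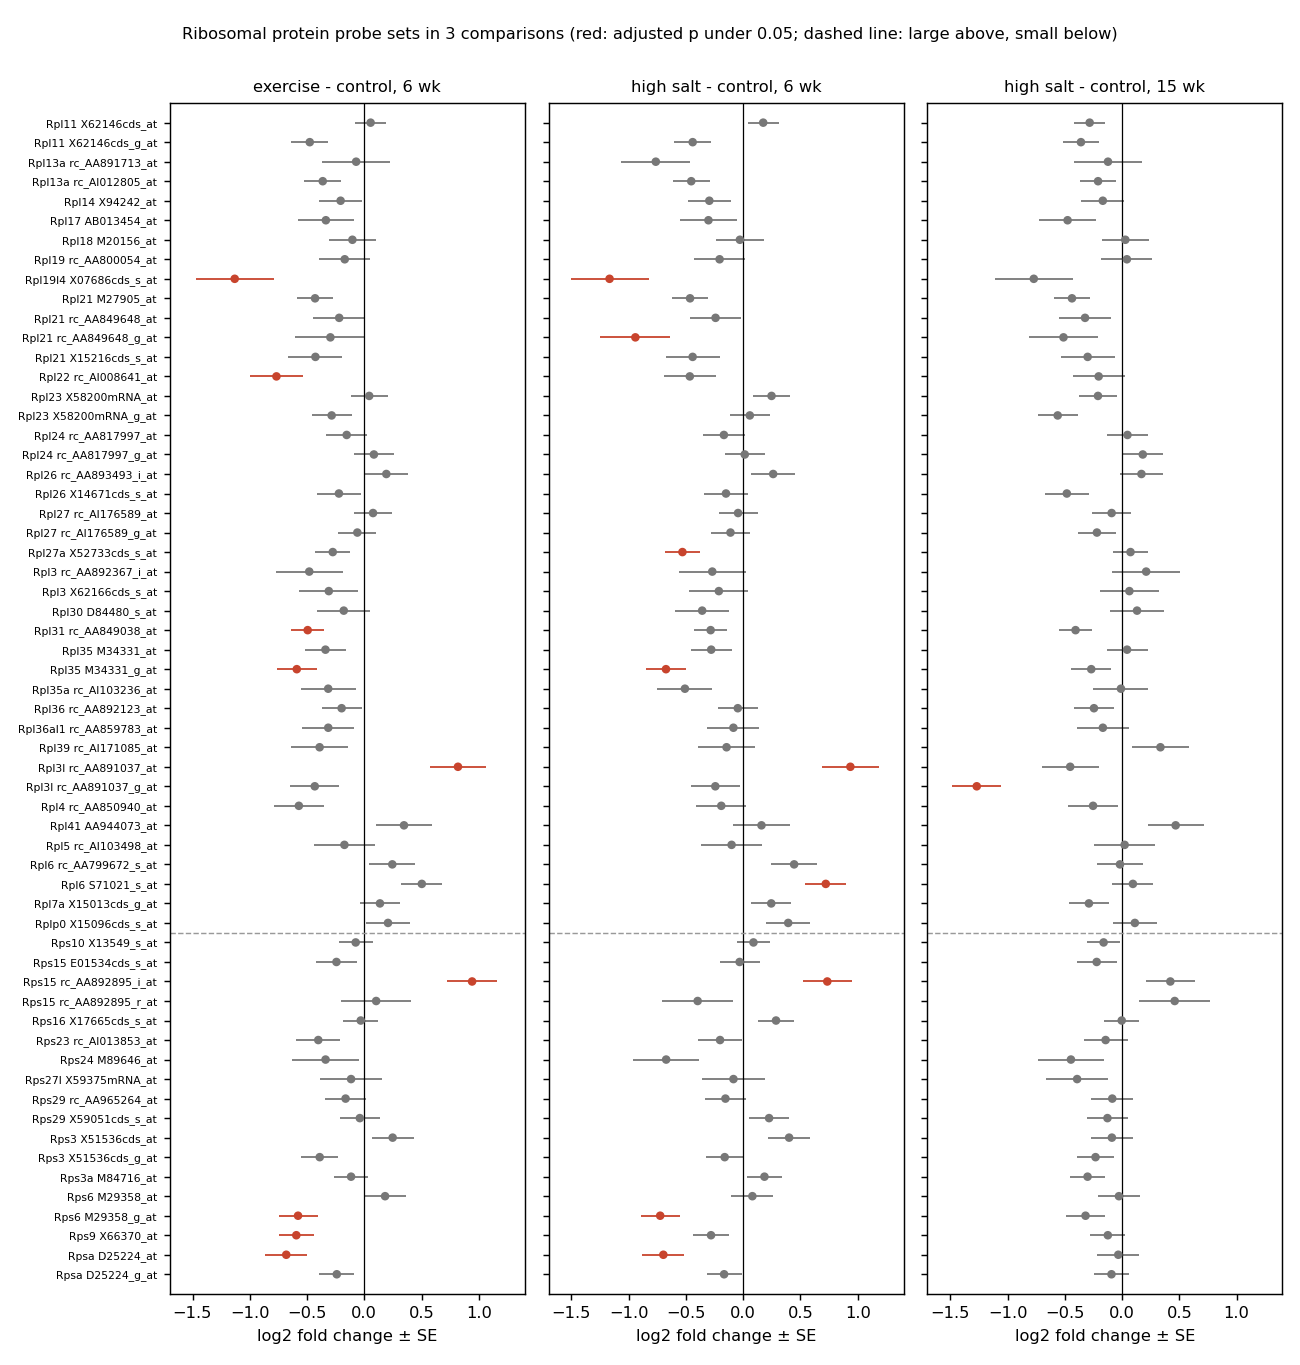
Points are log2 fold changes of the 60 member probe sets with standard errors, in exercise against control at 6 weeks, high salt against control at 6 weeks and high salt against control at 15 weeks; red marks an adjusted p under 0.05. Passing probe sets number 9, 9 and 1, and many of the other changes lie between -0.5 and 0.5.

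Probe sets of a gene often disagreed. Of the 16 genes with more than 1 member probe set, 9 had probe sets of opposite sign in the exercise comparison and 8 in the salt comparison at 6 weeks. In none of the 16 did every probe set pass in either comparison. In both, 3 genes (Rps6, Rps15 and Rpl3l) had a probe set that passed and another of opposite sign. The control arrays at 6 weeks were the odd group in several of them. Rps6 M29358_g_at lay between 10465 and 12198.5 in those arrays and between 5046 and 8689 in the other 17, and Rpsa D25224_at between 4663 and 6148 against 2826 to 4123.

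**Figure D3:**
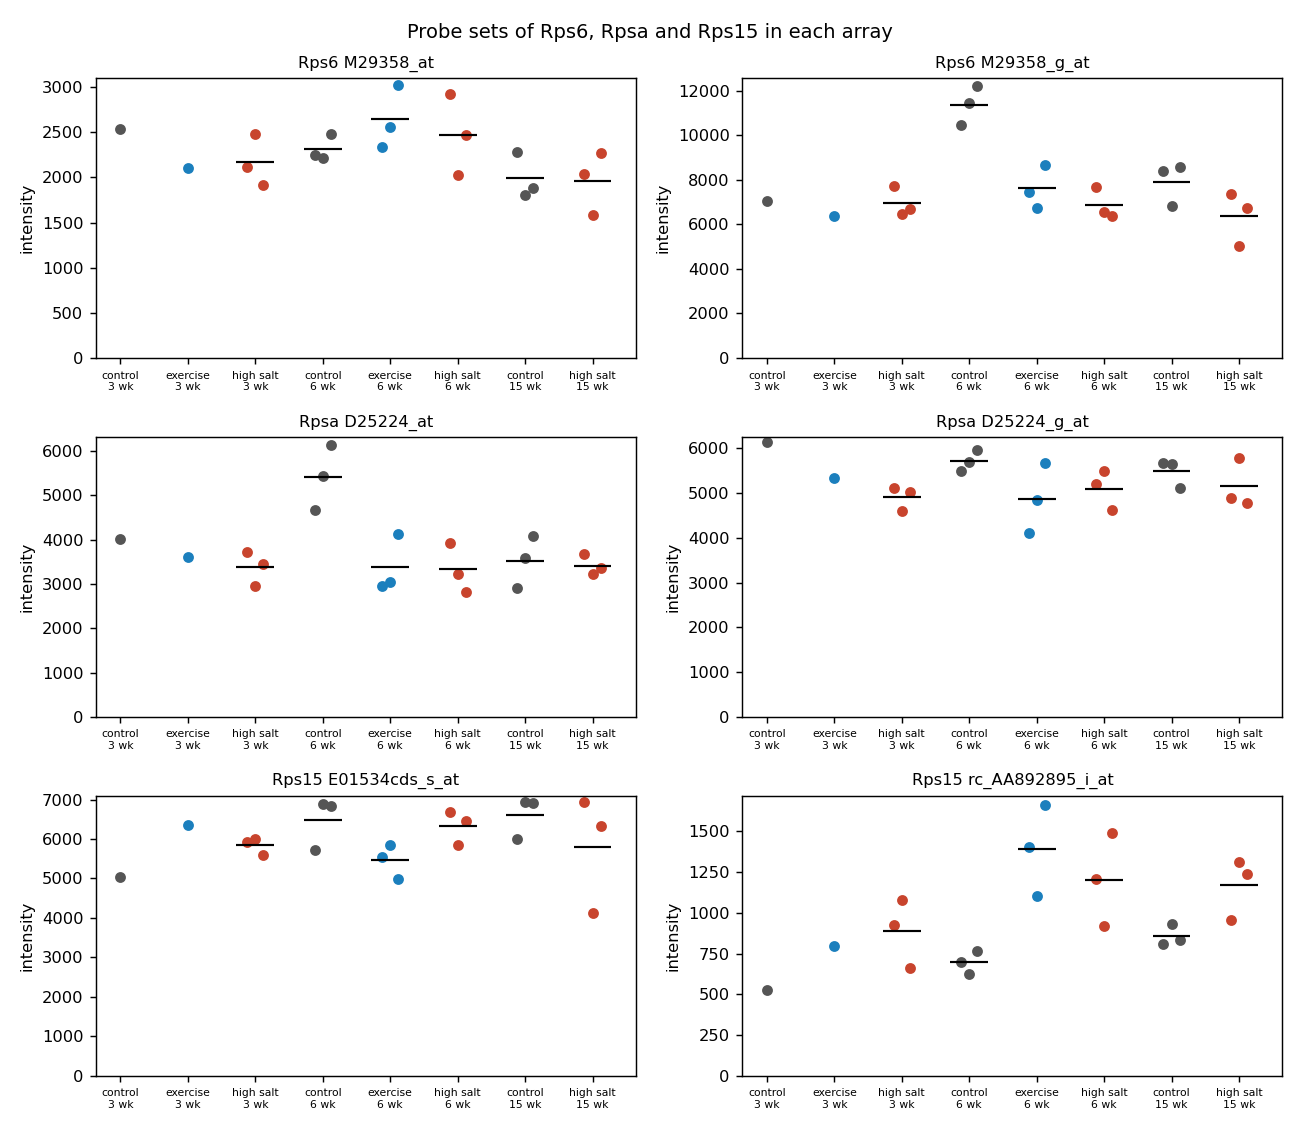
Each point is the deposited intensity of 1 array, by title group, for the probe sets of Rps6 (top), Rpsa (middle) and Rps15 (bottom, 2 of 3 probe sets), with means of groups of 3 as bars and each vertical axis starting at 0. In M29358_g_at and D25224_at the control arrays at 6 weeks lie above all others (10465 to 12198.5 and 4663 to 6148), and in their partner probe sets they do not stand clear.

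In both comparisons with control at 6 weeks the integrity ratio was highest in the control arrays, so integrity and treatment cannot be told apart. As a covariate the ratio also widened standard errors. For Rps9 under exercise the error went from 0.154 to 0.264, with a change of -0.59 in both fits. With log2 of the GAPDH ratio as a covariate, no member passed in either comparison in limma, with 4 and 5 at an unadjusted p under 0.05. Few probe sets of any kind passed in that fit. Under exercise none of 6555 did, with 471 at an unadjusted p under 0.05. Under salt 13 were higher and 2 lower, with 598 at an unadjusted p under 0.05. The member medians became -0.10 under exercise and 0.02 under salt. In that fit Rps15 rc_AA892895_i_at kept changes of 1.08 and 0.87 and Rps6 M29358_g_at of -0.50 and -0.65, while Rpl3l rc_AA891037_at dropped to 0.17 and 0.32 and Rpsa D25224_at to -0.23 and -0.27. The loads at 6 weeks were also set against controls of other weeks, 1 array of 3 weeks and 3 of 15 weeks. No member passed there either. Of all tested probe sets, 1 rose and 2 fell under exercise and 16 rose and 6 fell under salt. Rps6 M29358_g_at changed by -0.02 and -0.16, and Rpl27a under salt by 0.04. Not every change shrank as far. Over all settings that left out no single array, this one among them, Rps15 rc_AA892895_i_at had smallest changes of 0.82 and 0.62. In those settings the smallest change was 0.42 for Rpl6 S71021_s_at under salt and -0.32 for Rps9 under exercise. Leaving out 1 array at a time gave 0 to 10 members under exercise, with 0 without control array 2 and 1 without control array 3, and 2 without each exercise array in turn. Under salt it gave 2 to 11, with 2 without control array 2, 3 without control array 3, 5 without high salt array 2 and 4 without high salt array 3.

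**Figure D4:**
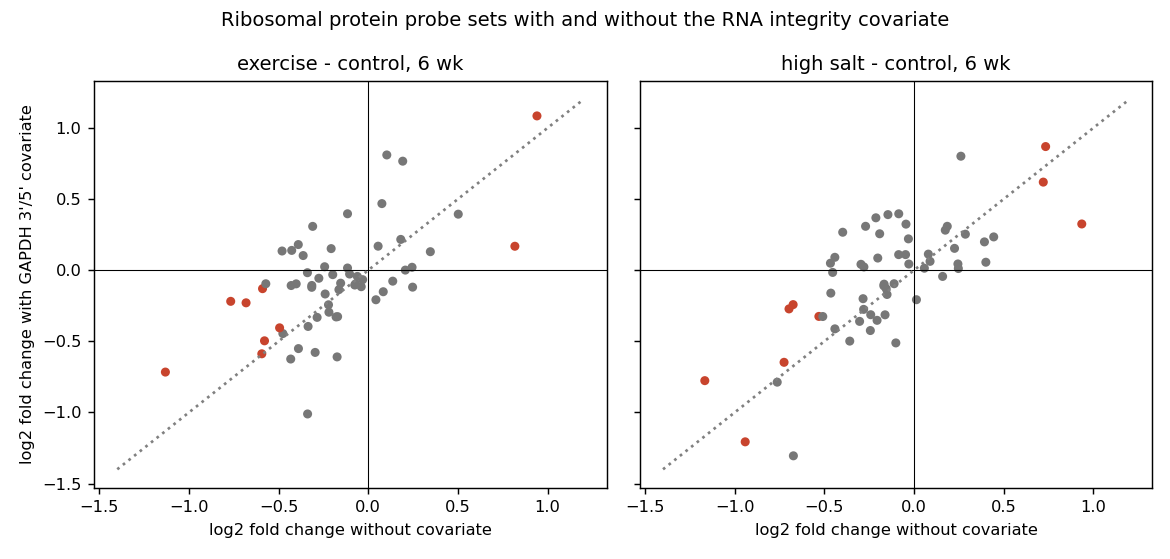
Each point is 1 member probe set, with its log2 fold change at 6 weeks without (horizontal) and with (vertical) the GAPDH 3'/5' ratio as a covariate, for exercise (left) and high salt (right) against control; red marks an adjusted p under 0.05 without the covariate, and the dotted line marks equal values. Rpl3l rc_AA891037_at drops from 0.82 to 0.17 under exercise, while Rps15 rc_AA892895_i_at stays near the line at 0.94 and 1.08.

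The 6-week loads could also be compared with each other, without those controls. No member passed between high salt and exercise, where 0.0153% of all tested probe sets passed (0.0153% higher and 0 lower), and in limma 2 had an unadjusted p under 0.05. These were Rpl13a rc_AA891713_at, at -0.69 (adjusted p = 0.641), and Rpl21 rc_AA849648_g_at, at -0.65 (adjusted p = 0.696). The median change of the members was 0.07, against -0.02 over all tested probe sets. Upward, the smallest p-values belonged to Rps16 (0.32), Rps9 (0.31) and Rps3a (0.30). A missed threshold does not show that the loads acted alike. The median standard error of a member's change was 0.19.

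At 15 weeks the high salt and control hearts were compared to describe the late stage of the diet. Of 60 members, 1 passed, Rpl3l rc_AA891037_g_at, which was lower; that is 1.67%, where 7.2% of all tested probe sets passed (3.28% higher and 3.92% lower). The median change was -0.15, against -0.04 over all tested probe sets. Below 0 lay 43 of 60, or 71.7%, against 55.0% of all, and in the small subunit 16 of 18. This order rested on high salt array 2, in which the family was lowest and all tested probe sets together were highest. Without it the median was -0.04 for the members and -0.13 over all tested probe sets.

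Rpl3l rc_AA891037_g_at gave 2789, 4230 and 3436 in control and 1775, 1432 and 1082 in high salt hearts at 15 weeks. The groups did not overlap, and every high salt array lay below all the other 17 arrays, whose lowest value was 1930.1. This probe set fell by 1.27 ± 0.21 (SE, n = 3 per group, adjusted p = 0.000885). The second Rpl3l probe set, rc_AA891037_at, gave 2041, 2000 and 1421 against 1443, 1688 and 903; these overlapped, and its change of -0.45 ± 0.25 did not pass (adjusted p = 0.334). The call on the first held in all 20 alternatives run, including both integrity ratios, with changes from -1.44 to -1.07 and adjusted p from 0.000174 to 0.00995.

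For Rpl3, the paralogue that Rpl3l can replace, neither probe set passed. X62166cds_s_at gave 2138, 3154 and 2418 in control and 2628, 1757 and 4029 in high salt hearts, a change of 0.06, and rc_AA892367_i_at changed by 0.21. The mean log2 signal of Rpl3l less that of Rpl3 within each array, a scale without meaning as a level, was 0.29, -0.24 and -0.31 in control and -0.79, -0.35 and -2.13 in high salt hearts. The groups did not overlap, with means of -1.09 ± 0.93 in high salt and -0.09 ± 0.33 in control hearts (SD, n = 3) and an exact permutation p of 0.1, two-sided, the smallest that 3 against 3 arrays allow. The array at -2.13 had the highest signal of all arrays in both Rpl3 probe sets. At 6 weeks the same difference lay the other way, at a mean of -0.63 ± 0.58 in control, -0.05 ± 0.08 in exercise and -0.05 ± 0.43 in high salt hearts (SD, n = 3). Exercise and control did not overlap (exact permutation p = 0.1, two-sided), and high salt and control overlapped (exact permutation p = 0.3, two-sided).

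**Figure D5:**
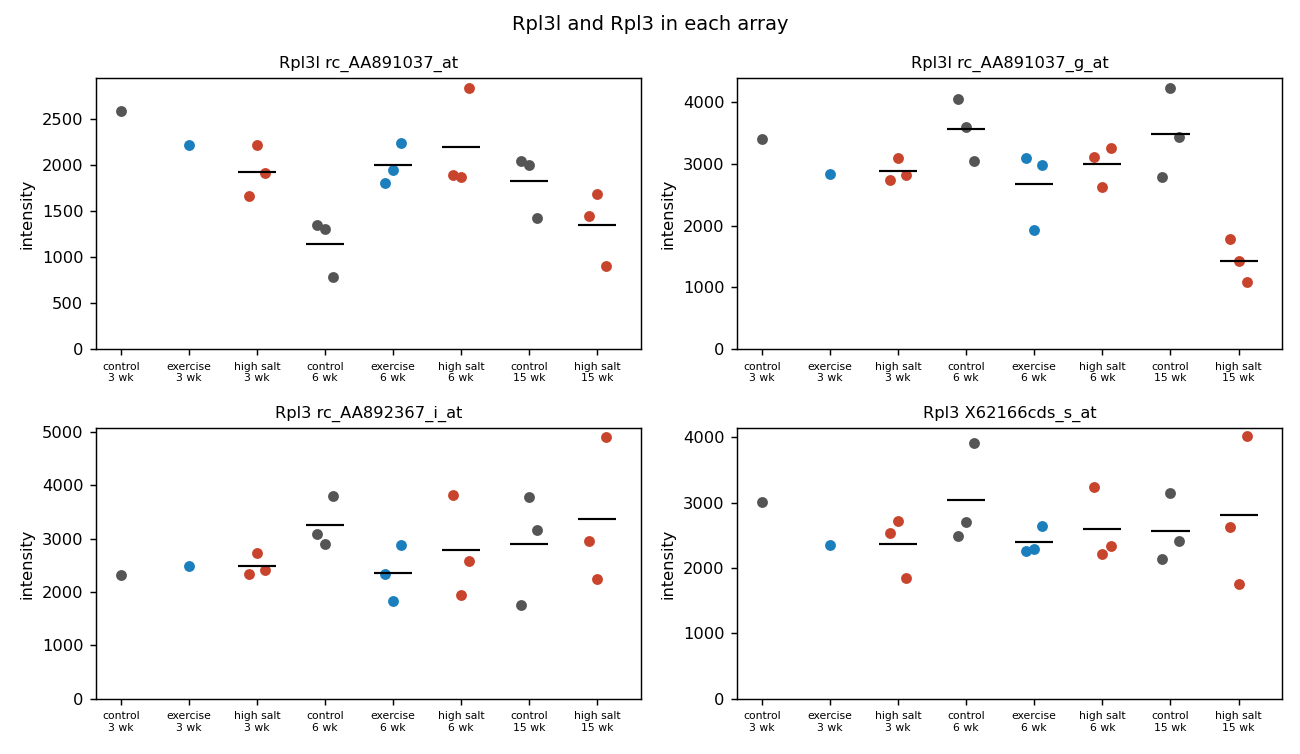
Each point is the deposited intensity of 1 array, by title group, for the probe sets of Rpl3l (top) and Rpl3 (bottom), with means of groups of 3 as bars and each vertical axis starting at 0. In rc_AA891037_g_at the 3 high salt arrays at 15 weeks (1082 to 1775) lie below all other arrays; rc_AA891037_at and both Rpl3 probe sets overlap between the groups at 15 weeks.

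After Rpl3l, the smallest p-values at 15 weeks belonged to large subunit genes. Rpl23 X58200mRNA_g_at changed by -0.56 ± 0.17 (adjusted p = 0.0564), Rpl21 M27905_at by -0.44 (adjusted p = 0.107) and Rpl31 by -0.41 (adjusted p = 0.107), each with groups that did not overlap. None passed. Rpl23 passed, at the same size of change, with a filter at the median intensity (adjusted p = 0.0415) and with all 24 columns as deposited (adjusted p = 0.0204), and without control array 1 it changed by -0.71 (adjusted p = 0.0212). Without high salt array 3, Rpl19l4 (-1.20) and Rpl26 X14671cds_s_at (-0.70) passed beside Rpl3l. The largest upward change was that of Rpl41, which encodes a very short basic protein, at 0.47. The probe sets of Rps6 changed by -0.03 and -0.32, those of Rpsa by -0.03 and -0.09, and Rplp0 by 0.11; none passed.

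Genes on the lists of cell markers moved in the same hearts at 15 weeks. Of 14 fibroblast probe sets, 7 fell, all of collagen genes, and their summed intensity was 14904 to 30538 in high salt against 37999 to 48563 in control arrays. Of 8 leukocyte probe sets 4 fell, all of Cd74, from a sum of 8519 to 9364 to a sum of 4527 to 5581. Of 5 red blood cell probe sets 3 rose (32993 to 40258 against 18749 to 24970), and of 6 atrial myocyte probe sets the 4 of Nppa rose (86952 to 99617 against 10103 to 17356). No other gene of the fibroblast, leukocyte and atrial lists passed, Dcn, Cd14 and Myl7 among them. The sums of those lists are therefore not a measure of cell number. Of 8 smooth muscle probe sets 1 fell (3681 to 4230 against 5789 to 9514). None of the 12 cardiomyocyte, 5 endothelial and 3 adipocyte probe sets passed, and the cardiomyocyte sums overlapped at 233490 to 309179 against 277101 to 322590. No probe set of these lists was at 0, the lowest single value being 2.0 in a leukocyte probe set. The part of these shifts in the fall of rc_AA891037_g_at was not tested.

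Across time on the diet, high salt hearts at 15 weeks were set against those at 6 weeks, which did not involve the controls of week 6. Of 60 members 1 passed, where 3.19% of all tested probe sets passed (1.65% higher and 1.54% lower). It was Rpl3l rc_AA891037_g_at, which fell by 1.07 ± 0.21 (adjusted p = 0.00527) from 3107, 2626 and 3255; rc_AA891037_at changed by -0.71 (adjusted p = 0.16). The next after these were Rpl23 X58200mRNA_g_at at -0.55 (adjusted p = 0.112) and Rps3a at -0.41 (adjusted p = 0.19), and upward Rps15 rc_AA892895_r_at at 0.53 (adjusted p = 0.518). Age and time on the diet cannot be told apart in this comparison. The member median was -0.11, against 0.01 over all tested probe sets.

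From 3 to 6 weeks of high salt no member passed, where 0.0763% of all tested probe sets passed, all of them lower, and none in limma had an unadjusted p under 0.05, against 303 of all. The median change was 0.08, against -0.01, and 44 of 60 lay above 0. Below 0 lay 26.7% of the members and 51.0% of all tested probe sets. Here too, age and time on the diet cannot be told apart. The smallest p-values belonged to Rpl24 (0.36), Rps15 rc_AA892895_i_at (0.42) and Rpl23 X58200mRNA_g_at (0.34). Between the control groups of 6 and 15 weeks no member passed, where 0.87% of all tested probe sets passed (0.458% higher and 0.412% lower), and in limma 8 had an unadjusted p under 0.05. Rpsa D25224_at (-0.62, adjusted p = 0.104), Rps6 M29358_g_at (-0.52, adjusted p = 0.121) and Rpl27a (-0.42, adjusted p = 0.171) led on the lower side with Rpl39 (-0.64, adjusted p = 0.19), and Rpl3l rc_AA891037_at (0.68, adjusted p = 0.175) and Rplp0 (0.47, adjusted p = 0.207) on the higher. The control arrays at 6 weeks had the highest GAPDH ratios, so integrity and age cannot be told apart here. With log2 of that ratio as a covariate the lower changes became -0.31 for Rpsa, -0.47 for Rps6, -0.27 for Rpl27a and -0.25 for Rpl39. The higher ones became 0.23 for Rpl3l and 0.33 for Rplp0. In limma with array weights 7 members passed, Rpl6 among them. Without control array 1 of week 6 Rpsa passed (adjusted p = 0.0338).

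At 3 weeks the high salt hearts were set against 4 distinct hearts without high salt, since the 2 arrays carrying both a control and an exercise label were without it under either. No member passed, where 0.153% of all tested probe sets passed (0.137% higher and 0.0153% lower), and in limma 3 had an unadjusted p under 0.05. Rpl6 S71021_s_at changed by 0.49 (adjusted p = 0.338), with 3705, 4145 and 3195.0 in the high salt arrays and 2596, 2953, 2228 and 2691 in the others. These groups did not overlap. Rps3 X51536cds_at changed by 0.40 (adjusted p = 0.467) and Rps16 by 0.27 (adjusted p = 0.612), and downward Rpl13a rc_AI012805_at by -0.23 and Rps24 by -0.44. The member median was 0.0029, against -0.05 over all tested probe sets.

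The difference between the salt effects at 15 and 6 weeks was tested as an interaction. Of 60 members 1 passed, where 1.6% of all tested probe sets passed (0.793% higher and 0.809% lower). It was Rpl3l rc_AA891037_at, at -1.39 ± 0.35 (adjusted p = 0.0499), from a change of 0.94 at 6 weeks to -0.45 at 15 weeks. The other Rpl3l probe set gave -1.03 ± 0.30 (adjusted p = 0.0977), from -0.24 to -1.27. Adding log2 of the GAPDH ratio to the model gave rc_AA891037_at a value of -0.93 (adjusted p = 0.397). After quantile normalization Rpl27a passed in its place, at 0.82 and higher, so the split of calls turned from 1 lower to 1 higher. No member passed without control array 1 or 2 or high salt array 1 or 3 of week 15, or without control array 2 or 3 or high salt array 2 or 3 of week 6, and 2 passed without control array 1 of week 6.

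Other genes of protein synthesis are given by list, to be read against the 7.83%, 14.4% and 7.2% of all probe sets that passed under exercise, under salt at 6 weeks and under salt at 15 weeks. Of 10 elongation factor probe sets, 3 rose under exercise: Eef1a2, the muscle form of the factor that brings transfer RNA, by 1.68, and Eef2, which moves the ribosome along, by 1.38 and 1.30. Under salt the same 3 rose and Eef1a1 fell by 1.11, and at 15 weeks none passed. Of 23 initiation factor probe sets, 3 rose under exercise (Eif4a2 by 1.48 and 1.46, and Eif4h), and under salt 3 rose and 2 fell, Eif5b by 1.01 and Eif2b1 by 0.86; at 15 weeks none passed. Of 16 ribosome biogenesis probe sets, Polr1a, the largest subunit of RNA polymerase I, rose under exercise, and Dkc1, the pseudouridine synthase of ribosomal RNA, fell by 1.08 and 0.91 and Gnl3 by 0.69. Under salt Ncl rose by 1.17 and Dkc1 and Gnl3 fell. At 15 weeks Dkc1 fell by 0.74 in 1 probe set.

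Of 25 probe sets for genes that control ribosomal protein synthesis, 3 rose and none fell in each of the comparisons with control at 6 and 15 weeks. Under exercise these were Akt1, Pik3r1 and Eif4ebp1, the repressor of cap-dependent translation that mTOR phosphorylates. At 15 weeks Eif4ebp1 rose by 1.59 and 1.13 and Pik3r1 by 1.65. Of 17 mitochondrial ribosomal protein probe sets, Mrpl13 fell by 0.79 under exercise and by 0.78 under salt, Mrps11 fell by 0.91 under salt, and none passed at 15 weeks. Naca, a chaperone bound at the ribosome exit, fell by 0.71 and 0.68 at 6 weeks, 1 of 2 probe sets in its list. The medians of these lists at 15 weeks were 0.23 for elongation, -0.01 for initiation, -0.04 for biogenesis, 0.12 for control and -0.11 for mitochondrial ribosomal proteins, against -0.04 over all tested probe sets. With the GAPDH ratio as a covariate, and likewise against the controls of 3 and 15 weeks, no probe set of these 6 lists passed in limma at 6 weeks, with 0 to 8 a list at an unadjusted p under 0.05. At 15 weeks the covariate left the 3 calls on Eif4ebp1 and Pik3r1 and ended that on Dkc1.

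At 6 weeks, genes on the lists of cell markers moved against the same control arrays. The atrial calls were all of Nppa, and the leukocyte rises came from 1 gene in each comparison. Under exercise 5 of 8 smooth muscle probe sets fell (sums of 4050 to 6620 against 7596 to 18082), 4 of 12 cardiomyocyte probe sets rose (216072 to 273838 against 204240 to 285079), 1 of 3 adipocyte probe sets fell (2172 to 2708 against 3094 to 7253), 1 of 5 endothelial probe sets fell, 2 of 8 leukocyte probe sets rose and 3 of 6 atrial probe sets rose. Under salt 4 of 8 smooth muscle probe sets fell, 3 of 12 cardiomyocyte probe sets rose, 1 adipocyte and 1 endothelial probe set fell, 3 leukocyte probe sets rose and 1 fell, and 4 of 6 atrial probe sets rose. No fibroblast or red blood cell probe set passed in either. In the fit with the GAPDH covariate, the marker probe sets that passed at 6 weeks were 3 of Nppa under salt. The part of these markers in the results for ribosomal protein genes was not tested.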

How the data were processed

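Total RNA of left ventricles was measured on a rat expression array. Per the file headers and values, the authors deposited a linear intensity for each of 8799 probe sets on every array. A mean trimmed by 2% ranged over the columns from 500.767 to 501.021. How probe signals were summarised is not given in the sources used here. No further normalization was applied. The 59 control probe sets and those with a mean under the 25th percentile were not tested. Genes came from the platform annotation, in which 7018 probe sets had 1 symbol, 308 several and 1473 none; 40 of 41 member genes matched RefSeq by gene ID.

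A linear model of log2(intensity + 40), where the pseudocount understates changes of dim probe sets, was fitted to 20 arrays with 1 mean per group and 12 residual degrees of freedom (limma 3.58.1 with an intensity trend, R 4.3.3). The single arrays at 3 weeks borrow their spread from the other groups. The comparison at 3 weeks used 22 distinct arrays, with those without high salt as 1 group. A probe set passed at an adjusted p under 0.05, with Benjamini-Hochberg adjustment over 6555 probe sets; 9 comparisons were made, each adjusted on its own. The script was tested on simulated data. The number of arrays limits the precision. The members and lists were chosen with earlier results of these data known. Named members were all that passed, up to 10 in each direction; where under 5 passed, the 3 with the smallest p in each direction; a fixed set (Rplp0, Rpsa, Rps6, Rpl3, Rpl3l); and genes with a passing probe set and another of opposite sign. From each other list, up to 3 probe sets with the smallest p were eligible; those named beyond this, and Rpl19l4 and Rpl26 at 15 weeks, were chosen after their values were seen. The alternatives tried were other pseudocounts, filters, normalization, array weights, integrity covariates, 1 probe set per gene, a replicate block, other sets of arrays and leaving out each array. The covariate from beta-actin, and the calls of the other lists with the GAPDH covariate and against other controls, were added after seeing the data. Samples were not treated as paired by the numbers in the titles.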

Additional observations from a re-analysis of the deposited data

Results flagged for a closer look

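The salt effect on Rpl3l differed between the weeks in 1 of its 2 probe sets by the interaction test in limma. The other, rc_AA891037_g_at, gave -1.03 and did not pass (adjusted p = 0.0977). The test uses the control arrays at 6 weeks, whose GAPDH ratios were the highest. With that ratio as a covariate in limma neither probe set passed (adjusted p = 0.397 and 0.375). In rc_AA891037_at the effect at 15 weeks less that at 6 weeks was -1.39 on the log2 scale (adjusted p = 0.0499), and over the 25 alternatives run it lay between -1.57 and -0.93, with adjusted p from 0.0162 to 0.704, and passed in 10. The 4 distinct arrays without high salt at 3 weeks were the only group of more than 3, and in none of 5 measures there (the mean deviation of all, large and small subunit members, and both Rpl3l probe sets) did an array stand apart by Dixon's criterion. With only 4 arrays that criterion can miss an array that differs, so it does not show that they were alike.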

How the results depend on the processing

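Counts of members that passed are given here by comparison, and where a value moved its cause was not tested. Under exercise at 6 weeks (9) they were 3 with no filter, 17 with array weights, 5 with 1 probe set per gene, 1 with only the compared groups in the fit, and 0 with either integrity ratio or against the controls of 3 and 15 weeks; leaving out 1 array gave 0 to 10. Under salt at 6 weeks (9) they were 8 with no filter, 17 with array weights, 4 with 1 probe set per gene, 2 with only the compared groups, and 0 with either ratio or the other controls; leaving out 1 array gave 2 to 11. Under salt at 15 weeks (1) they were 2 with a filter at the median or with the identical arrays kept as controls or as exercise, 4 with all columns, 5 with array weights, and 1 to 3 leaving out 1 array. High salt at 15 against 6 weeks (1) gave 2 with all columns. The interaction (1) gave 0 with a pseudocount of 16, no filter, either ratio, 1 probe set per gene or only the compared groups, 2 with all columns, 3 with array weights, and 0 to 2 leaving out 1 array. Array weights gave 1 at 3 weeks and 7 between the controls, where leaving out 1 array gave 0 to 1.

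The numbers in the titles did not pair the samples, since correlations of same-numbered arrays lay between -0.228 and 0.241 and in none of 7 comparisons were all over 0.1. With the replicate block, 4 members passed under exercise, 8 under salt at 6 weeks, 1 under salt at 15 weeks and 0 in the interaction.

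In all, 135 of 187 alternative counts stayed within 1.5 times the main count, many of them in comparisons whose main count was 0. Under exercise at 6 weeks, 7 of 15 settings and 1 of 6 fits without 1 array stayed so. Under salt at 6 weeks, 9 of 15 settings and 2 of 6 such fits did. Of 496 values of single probe sets, 329 kept their direction and side of the threshold, 165 lost the call and 2 reversed. Those were Rpl19l4 under exercise with the beta-actin ratio, at 0.075, and Rpl27a under salt at 6 weeks against the controls of 3 and 15 weeks, at 0.037. Of the 329, some belonged to Rpl3l probe sets without a call to lose. These were 21 each for rc_AA891037_g_at under exercise and under salt at 6 weeks, and 19 for rc_AA891037_at under salt at 15 weeks. Quantile normalization moved the median over all tested probe sets under salt at 6 weeks from -0.15 to -0.05 and that of the members from -0.16 to -0.25. With the beta-actin ratio the member medians at 6 weeks were 0.02 under exercise and -0.03 under salt.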
